A study of Rattus norvegicus with 6 samples.

Results

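The genes described here encode the proteins of the splicing machinery and the heterogeneous nuclear ribonucleoproteins (hnRNPs), chosen by symbol: every gene whose symbol begins with Srsf, Sf3a, Sf3b, Prpf or Lsm followed by a digit, or with Hnrnp, Snrp or U2af. The rule found 75 genes among the 17327 in the count tables by symbol alone. RNA was sequenced from 6 samples of primary Schwann cells of adult Wistar rats, the glial cells that ensheath the axons of peripheral nerves. By the study's methods, all cells were routinely cultured in medium that already held serum, forskolin and recombinant soluble NRG1β1. The mock cells had thus also met NRG1 before the experiment. At confluence the cells were starved for 18 h without added NRG1, in medium with 2% foetal bovine serum and 10 µM forskolin, a compound that raises cAMP. They were then kept for 6 h in that medium with either 10 nM recombinant soluble NRG1β1 (3 NRG1 samples) or the same volume of its buffer, PBS with albumin (3 mock samples). Replicates 1, 2 and 3 were independent cell preparations that each gave 1 mock and 1 NRG1 sample. Forskolin was thus present in both groups, and the cultures held no axons.

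Splicing removes introns from a newly made transcript. U1 ribonucleoprotein particles (snRNPs) bind the start of the intron, SF1, U2AF and the U2 snRNP bind the branch site and the end of the intron, and the U4/U6.U5 tri-snRNP then joins to build the catalytic spliceosome. The snRNAs of the U1, U2, U4 and U5 particles carry a ring of Sm proteins, encoded mostly by the Snrp genes, while U6 carries a ring of Lsm proteins. SR proteins (Srsf genes) and hnRNPs bind the transcript itself and promote or repress the use of splice sites, and many of them also take part in export, stability or translation of the mRNA. NRG1 is a growth factor that acts on Schwann cells through the receptors ErbB2 and ErbB3. The paper states that neurons and Schwann cells both release its soluble forms, the kind used here.

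Counts on genes summed to between 6821590 and 15475018 per sample, and a level of 3 counts was 0.194 to 0.444 CPM (counts per 1000000 counts on the genes tested, after scaling of the library). The Schwann cell markers were high in every sample, the summed level of all 8 genes being 7040, 18500 and 17180 CPM in mock samples 1, 2 and 3 and 5163, 13450 and 13580 CPM in the NRG1 samples. This sum was lower in the NRG1 sample of each pair, with Pmp22 and S100b among the genes past the adjusted p used below, and its part in the results was not tested. Replicate 1 stood apart in both groups: the fibroblast markers Thy1 and Dcn, at 0 CPM in all samples of replicates 2 and 3, were at 1268 and 611 CPM in mock sample 1 and at 1143 and 427 CPM in NRG1 sample 1. The summed level of the 6 fibroblast markers, most of it from Col1a1, was 13630 to 31030 CPM in mock and 13420 to 34510 CPM in NRG1 samples. That of the 4 mural and muscle markers was 1870 and 1893 CPM in the samples of replicate 1 and between 3.37 and 7.70 CPM in the others, while the sums for macrophages, endothelium and neurons did not exceed 56.5 CPM, with Ptprc, Pecam1, Cdh5 and Rbfox3 at 0 CPM in every sample. Results are therefore given also without replicate 1, and in such bulk samples fewer cells of a type and less RNA per cell cannot be told apart.

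Of the 75 genes, 70 had enough counts to be tested, and 11 of them were higher in NRG1 than in mock samples at an adjusted p of at most 0.01 in edgeR's quasi-likelihood test with the replicate as a block. None was lower. The 11 genes were Snrpa, Lsm7, Snrpf, Prpf19, Srsf2, Snrpa1, Snrpb, U2af1, Lsm4, Hnrnpf and Hnrnpd, so that they came from 6 of the 7 symbol families, with Sf3a and Sf3b the exception. They make 15.7% of the genes tested here, against 6.31% of all 9740 genes tested that were higher at this threshold, and the 0 genes lower stand against 5.51%. At an unadjusted p under 0.05, 28 of the 70 genes (40%) were higher and 1, Prpf18, was lower (1.43%), against 17.0% and 18.7% of all genes tested. DESeq2 with the block also gave 11 genes higher, the same ones, and 0 lower.

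Most of these changes were small. The log2 fold changes of the 70 genes ran from -0.27 to 1.47 with a median of 0.23, where the median of all genes tested was -0.03. A positive log2 fold change was found for 59 of the 70 genes (84.3%), against 47.2% of all genes tested. Snrpa and Lsm7 were the 2 genes that also exceeded an absolute log2 fold change of 1, in the higher direction as 1.56% of all genes tested did and in either direction as 3.47% did. Among the 59 genes not called, the range was -0.27 to 0.60 on the log2 scale and the median 0.17.

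**Figure D1:**
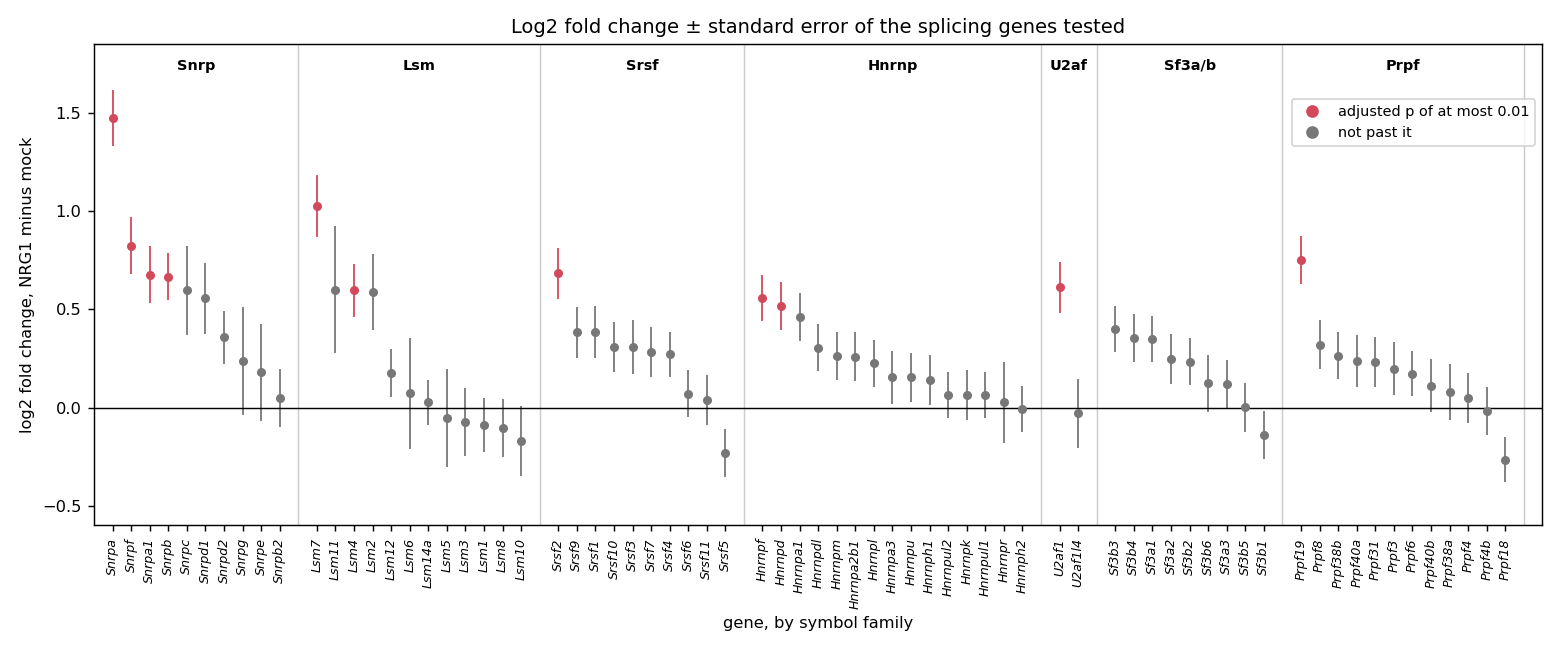
Log2 fold change of NRG1 against mock (vertical axis) for the 70 splicing genes tested, grouped by symbol family and ordered within it. Points are estimates of the blocked fit, bars are ± 1 standard error (SE), and red points mark the 11 genes past an adjusted p of 0.01; all 10 Snrp genes lie above 0, while the Lsm genes lie on both sides of it.

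The direction was shared by the 3 pairs, but its size was not. The median log2 ratio of the 70 genes was 0.12 in replicate 1, 0.41 in replicate 2 and 0.22 in replicate 3, with 48, 60 and 54 of them above 0, while the medians of all genes tested were -0.03, -0.03 and -0.0087. The ratio was largest in replicate 2 for 49 of the 70 genes (70%), against 39.1% of all genes tested. In 38 of the 70 genes (54.3%) the NRG1 sample was the higher one in all 3 pairs, against 25.9% of all genes tested, and in 4 genes it was the lower one in all 3, against 30.0%. For 16 of the 70 genes (22.9%) every NRG1 sample was above every mock sample, against 10.2% of all genes tested.

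The 75 genes together took 0.896%, 0.913% and 0.901% of the counts on genes in mock samples 1, 2 and 3 and 0.936%, 1.18% and 1.04% in the NRG1 samples. All 3 NRG1 samples thus lay above all mock samples, by 0.15 ± 0.12 percentage points within pairs (SD, n = 3). An exact permutation test over 3 pairs, two-sided, gave p = 0.25, which is the smallest value this design allows. The share of alignments in more than 1 place of the genome, which were not counted for any gene, also lay higher in the NRG1 sample of each pair, at 24.5% and 26.4% in replicate 1, 26.1% and 28.9% in replicate 2 and 28.7% and 29.9% in replicate 3. Its part in the values of genes with near-identical copies was not tested.

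**Figure D2:**
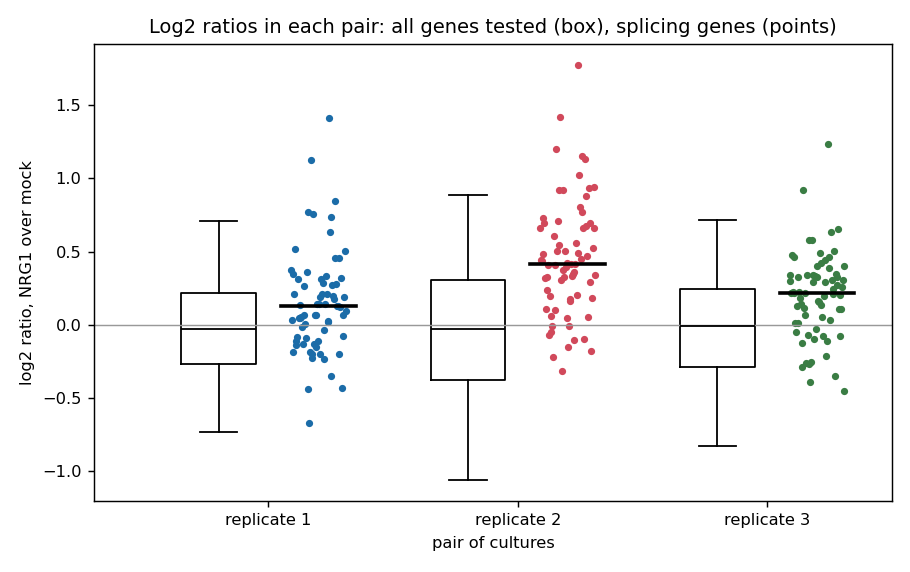
Log2 ratio of NRG1 over mock (vertical axis) in each pair of cultures (horizontal axis). Boxes show all 9740 genes tested with median, quartiles and whiskers from the 5th to the 95th percentile, points are the 70 splicing genes, and thick bars their medians of 0.12, 0.41 and 0.22, which lie above the box median in each pair.

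Without replicate 1, the only pair in which the fibroblast markers Thy1 and Dcn were counted, 11 of 71 genes were higher (15.5%, against 5.94% of all genes in that fit), among them 10 of the 11 above. Lsm4 was lost (adjusted p = 0.039, edgeR) and Snrpd1 was gained (adjusted p = 0.0057, edgeR). Without replicate 2 the count fell to 6 of 70 genes (8.57%, against 5.07% of all genes), all from the 11, with Hnrnpf, Hnrnpd, Lsm4, Snrpa1 and U2af1 no longer past the threshold, and without replicate 3 it was 9 of 71 (12.7%, against 4.02%). Snrpa, Lsm7, Snrpf, Prpf19, Snrpb and Srsf2 passed whichever replicate was left out. Without the replicate block, which treats the 6 samples as unpaired, edgeR called 0 of the 70 genes and 0 of all 9740 genes (smallest adjusted p = 0.14, and 13 of the 70 genes higher and 0 lower at an unadjusted p under 0.05, which 7.32% of all genes passed as higher). DESeq2 without the block called 2 of the 70, Snrpa and Srsf2 (2.86%, against 1.17% of all genes higher).

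The snRNP protein genes (Snrp) held 4 of the 11. Snrpa, which encodes the A protein of the U1 snRNP, was at 19.4, 20.3 and 26.3 CPM in mock samples 1, 2 and 3 and at 52.0, 70.0 and 62.4 CPM in the NRG1 samples. The groups did not overlap, and the mock samples lay close together well below every NRG1 sample. Its log2 fold change of 1.47 (standard error, SE, 0.14, adjusted p = 1.3e-05, edgeR) corresponds to 2.78-fold, and by p-value it was at position 37 among all genes tested. The other protein particular to U1 in this set, the C protein (Snrpc), was counted at a mean of 4.67 CPM in mock and 7.13 CPM in NRG1 samples, with a log2 fold change of 0.60 (SE 0.23, adjusted p = 0.07, edgeR). Snrnp70, a U1 protein gene that the symbols did not cover, had a log2 fold change of 0.03 (SE 0.12, adjusted p = 0.90, edgeR).

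Of the proteins particular to the U2 snRNP, the A′ protein (Snrpa1) was at 23.7, 29.6 and 39.5 CPM in mock and at 36.8, 60.4 and 51.8 CPM in NRG1 samples. NRG1 sample 1 lay below mock sample 3, so the groups overlapped, but Snrpa1 rose within each pair, with a log2 fold change of 0.68 (SE 0.15, adjusted p = 0.0044, edgeR). Its partner, the B″ protein (Snrpb2), had a log2 fold change of 0.05 (SE 0.15), with log2 ratios of -0.35, 0.45 and 0.03 in pairs 1, 2 and 3, so that the pairs went in different directions.

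The Sm ring was counted through 6 genes, all with positive log2 fold changes, of which 2 passed. Another Sm gene, Snrpd3, had no entry under that symbol, so the ring was not fully covered. Snrpf (SmF) was at 21.4, 27.7 and 24.7 CPM in mock and at 38.5, 60.9 and 35.2 CPM in NRG1 samples, without overlap and with NRG1 sample 2 well above NRG1 samples 1 and 3. Its log2 fold change was 0.82 (SE 0.15, adjusted p = 0.0013, edgeR). Snrpb (SmB), the Snrp gene with the highest counts, was at 78.4, 125 and 134 CPM in mock and at 131, 218 and 185 CPM in NRG1 samples. It rose in each pair, although mock sample 3 was above NRG1 sample 1, with a log2 fold change of 0.67 (SE 0.12, adjusted p = 0.0015, edgeR). Snrpd1 (SmD1) was at 17.9, 17.9 and 19.4 CPM in mock and at 20.5, 40.1 and 24.0 CPM in NRG1 samples. These groups did not overlap, but the difference rested largely on NRG1 sample 2, and its log2 fold change of 0.56 did not pass (SE 0.18, adjusted p = 0.039, edgeR). Snrpd2, Snrpg and Snrpe had log2 fold changes of 0.36, 0.24 and 0.18, Snrpg and Snrpe being counted at under 6 CPM on average in both groups. Without replicate 2 the value of Snrpg turned to -0.077.

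**Figure D3:**
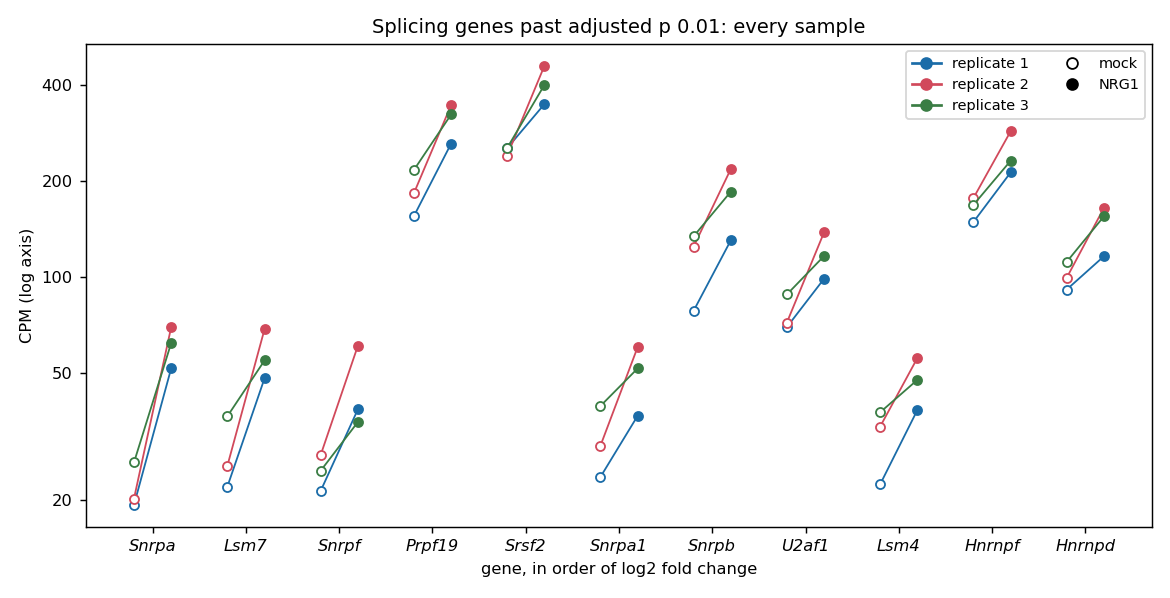
CPM on a log axis (vertical) of the 11 genes past an adjusted p of 0.01, ordered by log2 fold change (horizontal). Open points are mock and filled points NRG1 samples, and each line joins the samples of 1 replicate; all lines rise, on average most steeply for Snrpa, from 19.4 to 26.3 CPM in mock to 52.0 to 70.0 CPM in NRG1 samples.

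Among the 12 Lsm genes, 2 rose. Lsm7, a subunit of the ring on U6 snRNA, was at 22.0, 25.6 and 36.6 CPM in mock and at 48.3, 68.8 and 54.9 CPM in NRG1 samples. The groups did not overlap, and the log2 fold change was 1.03 (SE 0.16, adjusted p = 0.00044, edgeR), with log2 ratios of 1.12, 1.42 and 0.58 in the 3 pairs. Lsm4, another subunit of this ring, was at 22.4, 34.0 and 37.7 CPM in mock and at 38.4, 55.9 and 47.7 CPM in NRG1 samples. The gap between the highest mock and the lowest NRG1 sample was under 1 CPM, and its log2 fold change was 0.60 (SE 0.14, adjusted p = 0.0066, edgeR).

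The remaining subunits of the same Lsm2 to Lsm8 ring did not pass the test. Lsm2 was at 10.4, 13.3 and 19.2 CPM in mock and at 13.5, 30.9 and 22.3 CPM in NRG1 samples, with overlap and a log2 fold change of 0.59 (SE 0.19, adjusted p = 0.04, edgeR). Lsm6, Lsm5, Lsm3 and Lsm8 had log2 fold changes between -0.10 and 0.07, with SE from 0.15 to 0.28, and signs that differed between pairs. Whether these subunits differed from Lsm7 in their response was not tested. Lsm1, which takes the place of Lsm8 in the cytoplasmic ring that activates mRNA decapping, had a log2 fold change of -0.09 (SE 0.14). Lsm10 and Lsm11, which belong to the U7 snRNP of histone mRNA processing, had log2 fold changes of -0.17 (SE 0.18) and 0.60 (SE 0.32). Lsm11 was counted at only 0.788 to 5.33 CPM. Lsm14a, a component of cytoplasmic P-bodies and the Lsm gene with the highest counts, was at 156, 150 and 129 CPM in mock and 146, 161 and 135 CPM in NRG1 samples, which overlapped widely.

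Of the 10 SR protein genes tested, Srsf2 rose. It encodes SC35, which binds exonic enhancers, and was at 253, 240 and 253 CPM in mock and at 348, 458 and 399 CPM in NRG1 samples. Its mock samples were tightly grouped and all NRG1 samples were above them, with a log2 fold change of 0.68 (SE 0.13, adjusted p = 0.0018, edgeR). Srsf1, the SR gene with the highest counts, was at 338, 313 and 286 CPM in mock and at 370, 499 and 364 CPM in NRG1 samples. The groups did not overlap, but the difference of 0.38 on the log2 scale did not pass (SE 0.13, adjusted p = 0.049, edgeR). Srsf9, Srsf10, Srsf3, Srsf7 and Srsf4 had log2 fold changes between 0.27 and 0.38 and were higher in NRG1 in all 3 pairs without passing. Srsf5 was the only SR gene with a negative value, at 297, 204 and 201 CPM in mock and 220, 180 and 191 CPM in NRG1 samples, a log2 change of -0.23 (SE 0.12, adjusted p = 0.19, edgeR) with overlap between the groups.

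Of the 15 hnRNP genes tested, 2 rose. Hnrnpf, whose product binds G-rich stretches near splice sites, was at 149, 177 and 168 CPM in mock and at 213, 286 and 231 CPM in NRG1 samples, with no overlap and a log2 fold change of 0.56 (SE 0.12, adjusted p = 0.0041, edgeR). Hnrnpd (AUF1), which binds AU-rich elements and acts on mRNA stability, was at 91.4, 99.4 and 112 CPM in mock and at 116, 165 and 155 CPM in NRG1 samples. NRG1 sample 1 was only slightly above mock sample 3, and the log2 fold change was 0.52 (SE 0.12, adjusted p = 0.0074, edgeR). Both calls were lost when replicate 2 or replicate 3 was left out, with adjusted p-values of up to 0.015 for Hnrnpf and 0.03 for Hnrnpd in edgeR.

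Hnrnpa1, which commonly represses exon inclusion, was the gene closest to the threshold among those that missed it. It was at 78.7, 118 and 69.3 CPM in mock and at 102, 186 and 87.7 CPM in NRG1 samples, so that the replicates differed more from each other than the groups did, and its log2 fold change was 0.46 (SE 0.12, adjusted p = 0.013, edgeR). Genes such as Hnrnpa1 have near-identical copies elsewhere in mammalian genomes, and as reads in more than 1 place were not counted, these levels are uncertain. Hnrnpdl, Hnrnpm, Hnrnpa2b1 and Hnrnpl had log2 fold changes between 0.22 and 0.31 and were higher in NRG1 in all 3 pairs without passing. Hnrnpu, a nuclear scaffold protein and the hnRNP gene with the highest counts, was at 748, 814 and 764 CPM in mock and at 771, 933 and 893 CPM in NRG1 samples, a log2 change of 0.15 (SE 0.12, adjusted p = 0.4, edgeR). Among the 15 genes, 14 had a positive value, and the single negative one was -0.0067.

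For the recognition of the branch site and the end of the intron, U2af1 rose while the SF3 genes did not pass. U2af1 encodes the small U2AF subunit, which reads the AG at the end of the intron. It was at 69.7, 72.1 and 88.2 CPM in mock and at 98.9, 138 and 117 CPM in NRG1 samples, with no overlap and a log2 fold change of 0.61 (SE 0.13, adjusted p = 0.0041, edgeR). Its paralogue U2af1l4 had a log2 fold change of -0.03 (SE 0.18). The gene of the large U2AF subunit, U2af2, had no entry under that symbol.

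The SF3A and SF3B complexes bring the U2 snRNP to the branch site. Of the 9 genes with Sf3a or Sf3b symbols, which need not be all genes of the complexes, 8 had positive log2 fold changes. None passed, the smallest adjusted p being 0.023 in edgeR for Sf3b3, at 0.40 (SE 0.12). Sf3b4 and Sf3a1 followed, both with a log2 fold change of 0.35 (SE 0.12 each). At an unadjusted p under 0.05 these 3 genes were higher (33.3%, against 17.0% of all genes tested) and 0 were lower (against 18.7%). DESeq2 with the block called 0 of the 9. The exception in sign was Sf3b1, the largest subunit and the gene of these 9 with the highest counts. It was at 904, 686 and 655 CPM in mock and at 768, 637 and 619 CPM in NRG1 samples, lower in NRG1 in each pair, a log2 fold change of -0.14 that was close to its SE of 0.12 (adjusted p = 0.44, edgeR).

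Of the 12 Prpf genes, Prpf19 rose. It encodes the ubiquitin ligase at the centre of the Prp19 complex, which remodels the spliceosome for catalysis. Its level was 155, 183 and 216 CPM in mock and 262, 345 and 323 CPM in NRG1 samples, with no overlap and similar log2 ratios of 0.75, 0.92 and 0.58 in the 3 pairs. The log2 fold change was 0.75 (SE 0.12, adjusted p = 0.00066, edgeR), or 1.68-fold. Prpf8, the large U5 protein at the catalytic core and the Prpf gene with the highest counts, was at 402, 527 and 492 CPM in mock and 498, 590 and 690 CPM in NRG1 samples. It was higher in each pair without passing, with a log2 fold change of 0.32 (SE 0.12, adjusted p = 0.078, edgeR).

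The tri-snRNP proteins Prpf31, Prpf3, Prpf6 and Prpf4 had log2 fold changes between 0.05 and 0.23, and none passed. Prpf18, a factor of the second catalytic step, had the lowest value of the 70 genes. It was at 102, 99.4 and 95.5 CPM in mock and at 87.1, 79.9 and 80.1 CPM in NRG1 samples, so that every NRG1 sample was below every mock sample, which was the case for 9.94% of all genes tested. Its log2 fold change of -0.27 did not pass after adjustment (SE 0.11, adjusted p = 0.11, edgeR).

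The 5 genes that were not tested had few or no counts. Hnrnpab had 0 counts in all 6 samples, which allows up to 0.194 to 0.444 CPM, and Srsf12 had 0 to 2 counts. Snrpn, the SmN gene of neurons, had 0 to 10 counts, Hnrnph3 had 4 to 14, and Hnrnpc had 1, 4 and 6 counts in mock and 10, 19 and 10 in NRG1 samples. Hnrnpc and Hnrnpab are abundant in most cells, and a low count here says only that few reads were assigned to them in 1 place.

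The sequence before the gene start is printed for Snrpa, Lsm7, Snrpf and Prpf19, the genes with the largest log2 fold changes, so that the region upstream of each can be read beside its values. The sequences are from RefSeq on the GRCr8 assembly, 250 bases ending at the base before the annotated start, 5′ to 3′ on the strand of the gene, with matches to 6 short motifs in capitals. They lie at chr1:91618043-91618292 on the minus strand for Snrpa, chr7:9507123-9507372 on the plus strand for Lsm7, chr7:30024163-30024412 on the minus strand for Snrpf and chr1:216966257-216966506 on the plus strand for Prpf19.
Snrpa: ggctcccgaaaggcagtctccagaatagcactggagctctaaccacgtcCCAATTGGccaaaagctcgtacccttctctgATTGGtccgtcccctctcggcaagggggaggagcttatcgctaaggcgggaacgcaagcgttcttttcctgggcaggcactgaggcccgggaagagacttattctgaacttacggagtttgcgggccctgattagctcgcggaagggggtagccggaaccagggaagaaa
Lsm7: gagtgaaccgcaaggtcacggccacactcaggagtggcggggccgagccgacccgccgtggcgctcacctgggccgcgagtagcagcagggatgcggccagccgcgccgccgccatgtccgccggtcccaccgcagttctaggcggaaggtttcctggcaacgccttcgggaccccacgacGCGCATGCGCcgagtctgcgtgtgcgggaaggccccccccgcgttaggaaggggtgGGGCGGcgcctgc
Snrpf: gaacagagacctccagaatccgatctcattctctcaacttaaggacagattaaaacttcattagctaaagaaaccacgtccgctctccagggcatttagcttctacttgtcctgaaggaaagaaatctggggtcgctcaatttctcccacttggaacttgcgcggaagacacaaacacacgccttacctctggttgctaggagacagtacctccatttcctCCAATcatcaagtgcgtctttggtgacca
Prpf19: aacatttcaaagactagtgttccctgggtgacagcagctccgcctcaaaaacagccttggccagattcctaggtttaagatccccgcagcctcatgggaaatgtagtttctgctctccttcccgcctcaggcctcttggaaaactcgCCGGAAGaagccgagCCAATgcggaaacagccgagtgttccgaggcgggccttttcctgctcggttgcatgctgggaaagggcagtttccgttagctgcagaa

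In Snrpa the capitals mark CCAAT boxes (CCAAT, or ATTGG on the other strand), 2 of which overlap, starting 201, 198 and 170 bases before the gene start. In Lsm7 they mark the palindromic site of NRF1 at 69 bases and a GC box (GGGCGG or CCGCCC) at 13 bases before the start. Snrpf holds 1 CCAAT box at 29 bases, and Prpf19 an ETS core (CCGGAAG or CTTCCGG) at 103 bases and a CCAAT box at 88 bases before the start. The other motifs searched were the E-box CACGTG and the cAMP response element TGACGTCA, both of which read the same on either strand.

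Of the 75 genes, 71 matched a promoter of that table by symbol, among them all 11 that rose and 55 of the other 59 tested. For 4 of the 71 the table holds more than 1 window, and a match in any of them was counted. A CCAAT box stood before 7 of the 11 genes and 21 of the 55, and before 36.4% of the tested genes that could be matched (81.9% of 9740). The ETS core stood before 4 of the 11 and 14 of the 55, against 17.3%, and the GC box before 6 of the 11 and 31 of the 55, against 61.9%. The E-box was found before 1 of the 11, Hnrnpd, and the cAMP response element before 1, U2af1, against 8.87% and 3.34%, and they stood before 5 and 3 of the 55. The NRF1 site stood before Lsm7 alone of the 11 and before 2 of the 55, against 1.96%. Over all 33469 promoters of the table the CCAAT box was held by 34.0%, the ETS core by 7.27%, the GC box by 30.5%, the E-box by 5.59%, the cAMP response element by 1.59% and the NRF1 site by 0.762%. These matches are descriptions of letters in the windows.

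The other genes of the pathway were read from 8 lists, of which 107 genes were in the files and 101 were tested. Of these, 6 were higher in NRG1 (5.94%, against 6.31% of all genes tested) and 0 were lower in edgeR with the block. At an unadjusted p under 0.05, 31 were higher (30.7%, against 17.0% of all genes tested) and 8 lower (7.92%, against 18.7%), and DESeq2 with the block gave 6 higher, with Ddx39b in place of Nhp2l1, and 1 lower, Clk1. The median log2 fold change of the 101 genes was 0.17, and 74.3% of the values were positive, against 47.2% of all genes tested. In 27 of the 101 genes (26.7%) every NRG1 sample was above every mock sample, against 10.2%. The share called higher at an adjusted p of 0.01 was thus near that of all genes, while the shares by the unadjusted p, by sign and without overlap were above it.

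The strongest change in these lists was that of Celf4, an RNA-binding regulator of splice site choice best known from neurons. It was at 34.7, 56.2 and 97.3 CPM in mock and at 211, 311 and 301 CPM in NRG1 samples, with no overlap and a log2 fold change of 2.21 (SE 0.17, adjusted p = 2.3e-06, edgeR). Ptbp1, a repressor of many alternative exons, was at 210, 246 and 209 CPM in mock and 315, 391 and 345 CPM in NRG1 samples, a log2 change of 0.66 (SE 0.12, adjusted p = 0.0012, edgeR). Syncrip, an hnRNP-like protein, was at 73.1, 72.5 and 69.3 CPM in mock and 104, 129 and 113 CPM in NRG1 samples, a log2 change of 0.69 (SE 0.12, adjusted p = 0.0011, edgeR). In all 3 genes every NRG1 sample was above every mock sample, and the call of Ptbp1 was lost without replicate 3 (adjusted p = 0.014, edgeR). Of the 25 regulators tested the other 22 did not pass.

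Among 12 genes of snRNP assembly, Prmt5 rose. It encodes the methyltransferase that modifies Sm proteins before the SMN complex loads them on snRNA, and was at 55.5, 72.5 and 94.0 CPM in mock and 109, 141 and 137 CPM in NRG1 samples, a log2 change of 0.82 (SE 0.13, adjusted p = 0.00044, edgeR). Smn1, the core of the SMN complex, just missed the threshold with a log2 fold change of 0.53 (SE 0.13, adjusted p = 0.01024, edgeR) and passed under some alternative settings given below. Gemin2, the direct partner of Smn1, had the opposite sign at -0.47 (SE 0.15, adjusted p = 0.03, edgeR). Among 11 U1, U5 and tri-snRNP genes that the symbols did not cover, Nhp2l1, a small protein bound to U4 snRNA and to box C/D snoRNAs, rose with a log2 fold change of 0.77 (SE 0.18, adjusted p = 0.0077, edgeR), from 9.75, 10.7 and 12.5 CPM in mock to 15.1, 25.2 and 17.6 CPM in NRG1 samples. Its call was lost without replicate 2 (adjusted p = 0.046, edgeR).

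The kinases of SR proteins differed in sign from the other lists, with a median log2 fold change of -0.27 over 7 genes, 2 of them positive. At an unadjusted p under 0.05, 4 were lower (57.1%, against 18.7% of all genes tested) and 1 was higher (14.3%, against 17.0%). In 3 of the 7 genes every NRG1 sample was below every mock sample, against 9.94% of all genes tested. In 1 every NRG1 sample was above every mock sample, against 10.2%. Srpk1, which phosphorylates SR proteins in the cytoplasm, rose from 48.6, 46.6 and 43.9 CPM in mock to 70.7, 63.4 and 71.3 CPM in NRG1 samples, a log2 change of 0.56 (SE 0.12, adjusted p = 0.0046, edgeR). This call was lost without replicate 1 (adjusted p = 0.014, edgeR) and without replicate 3 (adjusted p = 0.055, edgeR). The nuclear kinase gene Clk1 was at 698, 539 and 554 CPM in mock and at 465, 446 and 405 CPM in NRG1 samples. Every NRG1 sample was below every mock sample, with a log2 fold change of -0.44 (SE 0.12) and an adjusted p of 0.021 in edgeR that did not pass. Srpk2 was likewise lower in each pair, at -0.42 (SE 0.12, adjusted p = 0.019, edgeR).

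No gene passed among 18 of the catalytic spliceosome and Prp19 complex, 13 SR-related and paraspeckle genes, 9 U2 and branch site genes and 6 of the exon junction complex. Their medians were 0.10, 0.05, 0.25 and 0.28 on the log2 scale. At an unadjusted p under 0.05 the counts higher in NRG1 were 4, 2, 4 and 2, or 22.2%, 15.4%, 44.4% and 33.3%. Over all genes tested 17.0% were higher, a share that the SR-related list did not reach. In each of these lists 0 were lower, against 18.7% of all genes tested. DESeq2 with the block called 1 of these genes, the helicase gene Ddx39b (UAP56) of the U2 and branch site list, whose log2 fold change was 0.41 in edgeR (SE 0.12, adjusted p = 0.024).

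**Figure D4:**
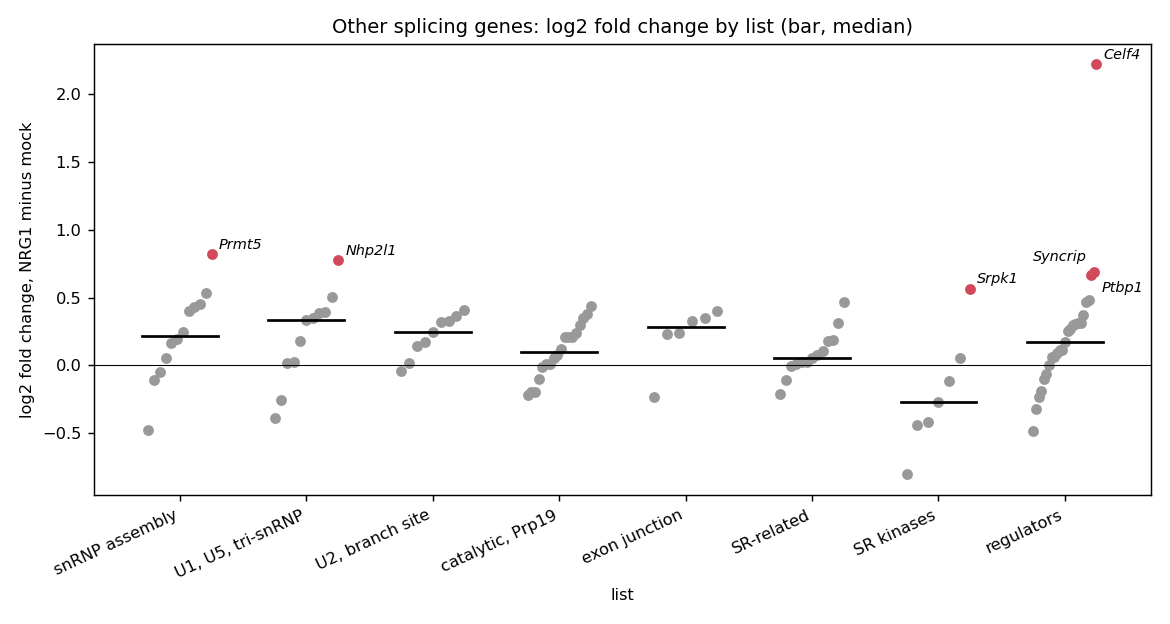
Log2 fold change of NRG1 against mock (vertical axis) for the 101 other splicing genes tested, by list (horizontal axis), with list medians as bars. The 6 red points are past an adjusted p of 0.01, Celf4 the farthest at 2.21, and the SR kinases are the list whose median lies below 0.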

How the data were processed

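RNA of 3 mock and 3 NRG1 samples was selected for poly(A), made into libraries with a kit that does not mark strand and sequenced. The authors aligned reads with TopHat2 2.0.10 to the rn5 assembly and counted them per RefSeq gene with HTSeq. The deposited files hold raw counts per gene, and the strand setting of the counting is not given in the sources used here. Genes that share reads with copies are uncertain.

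Genes with too few counts were removed (filterByExpr, min.count 10), leaving 9740 of 17327. Counts were scaled by TMM and tested in edgeR 4.0.16 (R 4.3.3) by the quasi-likelihood test, with Benjamini-Hochberg adjustment over all genes tested. The replicate was a block, as in the study's methods, which used DESeq2 rather than edgeR. A call is an adjusted p of at most 0.01, whereas the study also required an absolute log2 fold change over 1. Standard errors are the log2 fold change over the root of F. CPM are per 1000000 TMM-scaled counts, and pair ratios used a prior count of 2. The replicate numbers were taken from the labels, and that replicates were independent cell preparations is stated in the study's methods. Over all genes tested, deviations from the group means correlated at 0.91, 0.67 and 0.81 within replicates 1, 2 and 3. Over the 70 members the values were 0.86, 0.38 and 0.71. Mock and NRG1 samples taken across replicates 2 and 3 correlated at 0.51 over all genes tested, and at 0.06 and 0.20 over the members. DESeq2 1.42.0 was the second tool. Scripts were tested on simulated data, where 24 of 99 planted changes of 0.5 and 86 of 100 of 1 on the log2 scale were called. There was 1 false call among 111. A gene that did not pass is thus not shown to be unchanged. The members and lists were chosen with earlier results of these data known. The named genes are the called members (up to 12), the member with the highest mean in each family, the untested members and up to 5 called genes of the other lists. Any other gene named was chosen after its values were seen.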

Additional observations from a re-analysis of the deposited data

How the results depend on the processing

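The calls depended on the pairing. Without the replicate block, edgeR called 0 members higher, 0 members past both thresholds and 0 genes of the other lists, and DESeq2 called 2, 1 and 3. With the replicate block, the 11 members higher were 11 under DESeq2, RLE, upper quartile or library size scaling, a minimum of 10 counts in every sample and thinning within pairs, and 14 with no filter on low counts, the 11 being among them each time. No member was called lower under any alternative. At an adjusted p of 0.05 the counts were 19 members higher, and 21 higher and 5 lower in the other lists (27.1%, 20.8% and 4.95%, against 11.5% of all genes higher and 11.7% lower). Leaving out 1 replicate gave 6 to 11 members higher, 1 to 3 past both thresholds, 4 to 6 genes of the other lists higher and medians of 0.17 to 0.27. Upper quartile scaling put 1 member past both thresholds. Genes lower in the other lists were 1 under DESeq2 with the block and 3 with no filter (Celf2, Clk1 and Srpk2). Smn1 passed under RLE scaling, no filter, a minimum of 10 counts in every sample and thinning (adjusted p of 0.0033 to 0.0098, edgeR). It did not pass under DESeq2 with the block or with any replicate left out.

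Some uncalled log2 fold changes turned in sign. Lsm14a was -0.00506 under upper quartile scaling and -0.0055 to 0.086 when 1 replicate was left out. With 1 replicate left out, Lsm3 ranged from -0.34 to 0.10, Lsm5 from -0.365 to 0.24, Lsm6 from -0.24 to 0.32, Lsm8 from -0.30 to 0.072, Snrpb2 from -0.15 to 0.24, Snrpg from -0.077 to 0.63 and U2af1l4 from -0.20 to 0.24. The cause was not tested. With 3 pairs the precision rests on the spread between cultures, and for genes of a few CPM also on counting.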
